A study of Mus musculus with 16 samples.

Results

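Jarid2 is a component of Polycomb repressive complex 2 (PRC2), the complex that methylates lysine 27 of histone H3 (H3K27me3), and it is itself methylated at K116, a lysine in its N-terminal part (Jarid2-K116me2). The regions described here were the promoters where a single Jarid2 peak and a single Jarid2-K116me2 peak overlapped and both peaks reached the score at which the strongest peaks of the lists pile up. The score is the value that the peak caller wrote for each peak. Values above that pile-up are not read here as stronger peaks. The peaks of both lists in E14 embryonic stem cells (ESC) were merged wherever they overlapped by at least 1 bp, and a merged region was kept when it held exactly 1 peak of each list, when both peaks had a score of 3100 or more, and when its midpoint lay within 1 kb of an annotated transcript start. These members were selected on the Jarid2 and Jarid2-K116me2 scores themselves, so their scores and widths are given as a description, without a test. Of 5001 merged regions, 382 met the rule. They stood at 379 distinct genes, and 363 of them had a protein-coding start within 1 kb.

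The series held 16 samples. Total Jarid2 and Jarid2-K116me2 were each profiled by ChIP-seq in 1 sample of E14, an unmodified mouse ESC line grown in serum with LIF. H3K27me3 was profiled in 12 libraries from 3 further ESC lines: Jarid2-/- cells, and Jarid2-/- cells in which a bacterial artificial chromosome (BAC) carrying wild-type Jarid2 (Jarid2 rescue) or Jarid2 with that lysine changed to alanine (K116A rescue) had been integrated by a transposon. The 3 lines all lack the endogenous Jarid2 gene. Each line was sampled in 2 replicates as undifferentiated ESC (day 0) and in 2 replicates as embryoid bodies (EB) 8 days after the removal of LIF. Whether a line is 1 clone is not given in the sources used here, and a difference between lines cannot be told apart from a difference between clones. The input samples were not used here.

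At promoters of developmental genes in ESC, PRC2 binds stretches of unmethylated DNA rich in CpG dinucleotides, and the genes are held silent until the cell commits to a lineage. Loss of H3K27me3 from a promoter during differentiation commonly accompanies activation of its gene, and its spread accompanies stable silencing. Jarid2 helps recruit PRC2 to such promoters in ESC and falls in abundance as the cells differentiate.

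The sequence directly upstream of the start differed widely among the members. It is shown for members with high and low CpG ratios (observed over expected CpG in the 1 kb centred on the nearest start). It is also shown for 3 members picked by their score, position or H3K27me3. Each line gives the 200 bases before the nearest annotated start on the strand of the gene, in the NCBIM37 (mm9) assembly, with CpG dinucleotides in capitals. None of these windows overlaps an annotated exon. The 2 highest ratios among members with such a window before a start of their own gene belonged to L3mbtl3 (chr10:26094992-26095191, minus strand), a gene for a chromatin-binding malignant brain tumour repeat protein, and to Paqr9 (chr9:95460036-95460235, plus strand):
L3mbtl3: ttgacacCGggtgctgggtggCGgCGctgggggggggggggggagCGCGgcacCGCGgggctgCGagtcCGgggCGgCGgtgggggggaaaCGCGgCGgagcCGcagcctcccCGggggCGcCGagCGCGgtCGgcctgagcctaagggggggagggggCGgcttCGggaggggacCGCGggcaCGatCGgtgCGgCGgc
Paqr9: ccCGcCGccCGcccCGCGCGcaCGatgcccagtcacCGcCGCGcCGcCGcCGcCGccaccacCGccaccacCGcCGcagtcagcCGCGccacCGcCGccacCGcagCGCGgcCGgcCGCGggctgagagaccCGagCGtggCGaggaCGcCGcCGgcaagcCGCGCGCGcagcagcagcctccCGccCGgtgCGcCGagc
The 3 lowest ratios among the same members belonged to Tlx1 (chr19:45227023-45227222, plus strand), a homeobox factor of spleen development, to Igf2 (chr7:149847776-149847975, minus strand), the imprinted insulin-like growth factor, and to Kcnc2 (chr10:111707979-111708178, plus strand), a potassium channel of fast-spiking neurons:
Tlx1: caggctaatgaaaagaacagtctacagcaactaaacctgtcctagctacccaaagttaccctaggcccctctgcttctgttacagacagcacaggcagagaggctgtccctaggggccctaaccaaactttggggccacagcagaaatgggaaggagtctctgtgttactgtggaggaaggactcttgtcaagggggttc
Igf2: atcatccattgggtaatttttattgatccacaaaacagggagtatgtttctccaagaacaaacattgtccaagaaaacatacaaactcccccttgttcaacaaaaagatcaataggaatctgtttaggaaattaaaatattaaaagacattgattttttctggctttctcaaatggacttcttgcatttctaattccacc
Kcnc2: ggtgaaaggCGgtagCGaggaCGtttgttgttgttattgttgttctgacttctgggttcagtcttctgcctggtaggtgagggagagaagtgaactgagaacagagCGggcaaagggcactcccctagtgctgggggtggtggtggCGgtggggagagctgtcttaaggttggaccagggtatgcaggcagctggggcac
Adcy5 (chr16:35154763-35154962, plus strand), an adenylyl cyclase, was the member above 3100 in both lists, Nkx6-2 (chr7:146768697-146768896, minus strand), a homeobox factor of neural progenitors, had its midpoint closest to the start, and Olig1 (chr16:91269814-91270013, plus strand), a bHLH factor of oligodendrocytes, had no H3K27me3 peak in ESC:
Adcy5: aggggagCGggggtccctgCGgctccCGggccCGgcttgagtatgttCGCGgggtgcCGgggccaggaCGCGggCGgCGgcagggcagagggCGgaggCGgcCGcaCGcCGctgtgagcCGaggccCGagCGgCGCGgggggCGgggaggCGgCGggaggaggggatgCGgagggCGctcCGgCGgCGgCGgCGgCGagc
Nkx6-2: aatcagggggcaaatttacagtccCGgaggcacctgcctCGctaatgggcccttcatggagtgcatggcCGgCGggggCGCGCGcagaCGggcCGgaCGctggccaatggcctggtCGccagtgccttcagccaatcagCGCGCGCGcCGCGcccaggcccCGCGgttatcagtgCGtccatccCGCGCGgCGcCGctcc
Olig1: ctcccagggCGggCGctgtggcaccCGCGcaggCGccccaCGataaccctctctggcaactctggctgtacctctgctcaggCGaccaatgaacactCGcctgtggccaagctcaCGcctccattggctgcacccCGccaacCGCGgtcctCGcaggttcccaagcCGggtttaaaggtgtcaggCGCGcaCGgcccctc
The windows of L3mbtl3 and Paqr9 held 29 and 41 CpG, while those of Tlx1 and Igf2 held 0 and that of Kcnc2 held 5. Adcy5 had 32, Nkx6-2 had 25 and Olig1 had 17.

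Across the 382 members, the 1 kb around the start had a median CpG ratio of 0.772 (quartiles 0.691 and 0.857) and a median GC content of 64.8%. The 2082 other single-peak promoters, which also held 1 peak of each list and a start within 1 kb but lay below 3100 in at least 1 list, had a median CpG ratio of 0.721 and a GC content of 63.4%. Over 22380 protein-coding genes the medians were 0.549 and 54.8%. Each of these genes was taken at its most upstream annotated start, and the Jarid2 promoters at the start nearest to the region midpoint. A ratio under 0.6 was found at 47 members (12.3%), at 23.6% of the other single-peak promoters and at 54.4% of all protein-coding genes. Both sets of Jarid2 promoters were thus richer in CpG than the annotation as a whole. The medians of the members and the others were close, while ratios under 0.6 were less frequent at members. Over the entire merged region, the median CpG ratio was 0.588 at members and 0.603 at the others. Among the classes of genes, nuclear receptors had the lowest median CpG ratio around the start (0.571) and the other transcription factors the highest (0.812).

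Short words in the same 1 kb windows, searched on both strands, were counted next. The GC box core CCCGCC occurred at 90.3% of members, 89.0% of other single-peak promoters and 60.1% of protein-coding genes. CGCGCG was present at 58.1%, 57.0% and 28.2%. The TATA word TATAAA was present at 15.4% of members, 15.2% of the others and 32.1% of all genes. The E-box CACGTG differed little, at 15.4%, 16.4% and 17.0%, and GAGAGA stood at 62.0%, 56.1% and 58.7%, with all protein-coding genes between the members and the others. The first 3 words thus set both groups of Jarid2 promoters apart from all genes, and the last 2 did not. A match of such a word is a description of the sequence and not a binding site.

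Scores separated the members little, as the rule implies. Both scores were exactly 3100 at 362 of the 382 members. The Jarid2 score exceeded 3100 at 17 members and the Jarid2-K116me2 score at 4, and Adcy5 alone exceeded it in both, with 3213.87 and 3208.50. The highest Jarid2 score, 3233.06, belonged to the lincRNA AW047730. Scores above 3100 are not read as stronger binding than the pile-up at exactly 3100. The 17 included Kcng3 (3191.90) and Kcnc2 (3129.05), subunits of voltage-gated potassium channels. They also included Cacna1e (3169.41) and Cacnb4 (3187.16), subunits of voltage-gated calcium channels. These channel genes are examples, and the classes of the 17 were not counted. The list of channels, transporters and neurotransmitter receptors held 8.64% of all members. Oxtr, the oxytocin receptor, had 3199.70 and Cdk6, a cyclin-dependent kinase, 3209.41. Just outside the threshold, Galntl1 had 3087.04 for Jarid2 and 3100 for Jarid2-K116me2, Rgs20 had 3048.61 and 3100, and Zfp521 had 3100 and 3040.45. Just outside the distance limit, the midpoints of Kcnk9 and Aldh1a2, at the ceiling in both lists, lay 1025 and 1026 bp from a start. A further 181 single-peak regions at the ceiling lay farther than 1 kb from any start, and 66 promoters at the ceiling in both lists held several peaks. Among single-peak promoters, 108 reached 3100 for Jarid2-K116me2 alone and 5 for Jarid2 alone.

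The genes at the members were grouped by lists of gene families. Of the 382 members, 99 (25.9%) fell in the classes of transcription factors, against 100 (4.80%) of the 2082 other single-peak promoters. Homeobox genes, which pattern the embryo, were the largest of these classes, with 27 members (7.07%, against 1.10% of the others and 0.912% of all protein-coding genes). They included Lhx2, Lhx6, Lhx8 and Lmx1a of the LIM family, Nkx2-2, Nkx2-4, Nkx2-9, Nkx3-2 and Nkx6-2 of the NK family, and En1, Dbx1, Gsx1, Vax1, Barx1 and Msx3. Zinc finger factors had 23 members (6.02% against 0.913%), among them Zic1 and Zic4, Egr2, Egr3 and Egr4, Insm1, Sall3, Ikzf1, Gata5 and Bcl11a. The bHLH list, which takes in the related Ebf factors, had 15 (3.93% against 0.672%), with Ptf1a, a factor of pancreas and cerebellum, Olig1, Sim1, Twist1 and Twist2, Ebf1 and Ebf2. Forkhead genes had 6 members (1.57% against 0.192%), Sox genes 4 (1.05% against 0.288%), T-box genes 4 (1.05% against 0.0961%) and nuclear receptors 6 (1.57% against 0.720%). The T-box members were T and Eomes, which direct mesendoderm formation, Tbx1 and Tbx15. The Sox members were Sox3, Sox7, Sox9 and Sox18. A further 14 members fell in the list of other transcription factors and cofactors, with all of Runx1, Runx2 and Runx3, Cebpa, Lef1, Maf and Lmo2. The lists go by gene name, so this one also took in the non-coding Six3os1. The factors Myb and Trp73 fell in no class. Shares by class follow these lists.

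Signalling genes were a smaller group. Ligands and their inhibitors had 20 members (5.24% against 2.16% of the others), of which 7 were Wnt genes (Wnt1, Wnt2b, Wnt5a, Wnt5b, Wnt6, Wnt9b and Wnt10b), secreted ligands of cell fate. Fgf3, Fgf5 and Fgf9 encode fibroblast growth factors, Bmp6 a bone morphogenetic protein, and Grem1 and Bmper extracellular modulators of that pathway. Receptors had 7 members (1.83% against 1.63%), with Ptch1, the hedgehog receptor, Fgfr3, Flt1, Fzd1 and Ntrk2. Genes of axon guidance and adhesion had 22 (5.76% against 2.74%), including the guidance cues Ntn1 and Slit2, the receptors Unc5c and Nrp1, and Cdh2, the neural cadherin. Channels, transporters and neurotransmitter receptors were the largest list with 33 members, yet their share was no higher than among the others (8.64% against 9.61%). Among them were the glutamate receptors Grin2a, Grid1, Grm4, Grm6 and Grm8. The remaining 201 members (52.6%, against 79.1% of the others) fell in no class. Some of these were grouped after the members were seen: 7 enzymes that modify cell-surface glycans, sulfotransferases such as Hs6st2 and the sialyltransferase St8sia2, 14 genes of the extracellular matrix and its proteases (such as Reln, Col4a1 and Fbn1), 7 secreted organisers of synapses and their relatives (such as Cbln1 and C1ql2), 6 receptors for peptides and prostaglandins (such as Oxtr and Ghsr), the cell cycle inhibitors Cdkn2a and Cdkn2c, and the paired-box factors Pax1 and Pax5.

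**Figure D1:**
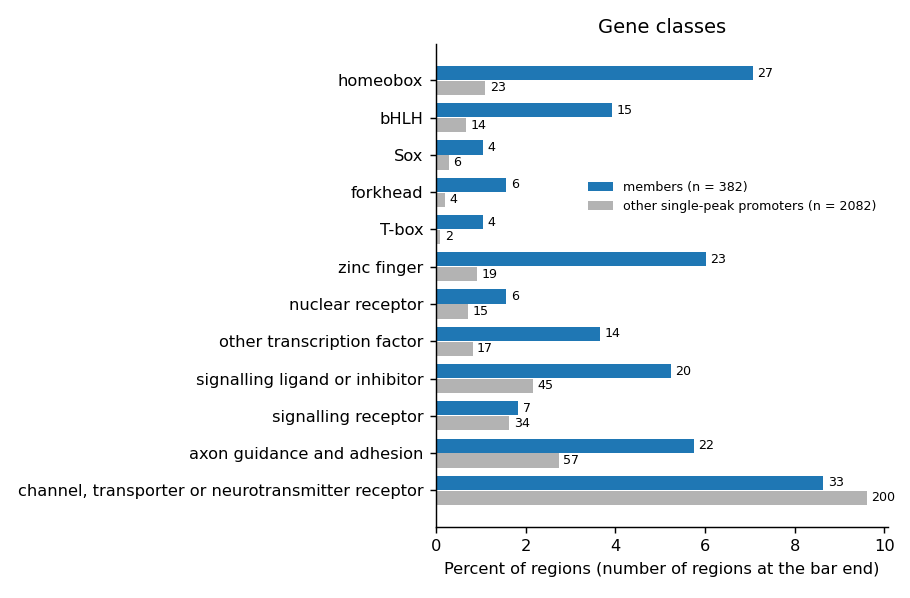
Share of members (blue) and of other single-peak promoters (grey) in each gene class, in percent of regions, with the number of regions at the end of each bar. Homeobox genes made up 7.07% of members and 1.10% of the others, while channels, transporters and neurotransmitter receptors had near-equal shares of 8.64% and 9.61%.

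The Jarid2 peaks of the members had a median width of 4462.5 bp, with quartiles of 3798.75 and 5510 bp and a range from 2479 to 24314 bp. The Jarid2-K116me2 peaks had a median of 3670 bp, from 2187 to 24107 bp. The other single-peak promoters had medians of 1924.5 and 1547 bp. Peak width and score come from the same reads, so this gap accompanies the selection on score. The width varied by class: homeobox members had a median Jarid2 width of 7850 bp, T-box members 7244 bp, nuclear receptors 6623 bp, forkhead genes 5967.5 bp and bHLH genes 5817 bp, while channels, transporters and neurotransmitter receptors had 3977 bp and members of no class 4182 bp. Among the 96 widest members (5513 bp or more), 57 were in the transcription factor classes, against 13 of the 96 narrowest.

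The widest member lay at a cluster of ribosomal RNA genes on chr8:126124362-126148675, with a Jarid2 peak of 24314 bp. It contained the starts of 14 genes annotated as rRNA, 8 of them named as 5S copies (n-R5s), and it bears the name of n-R5s143, whose start was nearest. Reads that fit several of these copies were assigned to a single location by the aligner, so its values cannot be given to one copy. The next widest was Six3os1 (21787 bp, chr17:86006131-86027917), a non-coding RNA transcribed from the locus of the eye and forebrain factor Six3. Lhx2, a LIM homeobox factor of the cortex and the hair follicle, followed with 16206 bp (chr2:38199810-38216015), and a second member at the same gene lay 441 bp away. Barx1 (13584 bp), En1 (13503 bp), Zic4 (13395 bp), Zic1 (13376 bp) and Tbx1 (12740 bp) came next. Zic1 and Zic4, neighbours that are transcribed from a shared locus, were separate members 3452 bp apart, and Wnt10b and Wnt1 were 7600 bp apart. Outside the transcription factor lists and the rRNA genes, the widest peaks were at Wnt5a (12366 bp), at the paired-box factor Pax1 (9514 bp), which no list holds, at the protocadherin Pcdh7 (9427 bp) and at Sfmbt2 (9388 bp). The narrowest peaks were at Gm9934 (2479 bp), Id4 (2684 bp), an inhibitor of bHLH factors, Rassf10 (2731 bp), C530025M09Rik (2825 bp) and Nell2 (2826 bp).

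The Jarid2 peak was the wider of the pair at 372 of 382 members (97.4%), and it enclosed the entire Jarid2-K116me2 peak at 333 (87.2%). The median ratio of the widths was 1.17, with quartiles of 1.10 and 1.26. The same ratio had a median of 1.22 at the other single-peak promoters, where the Jarid2 peak was wider at 90.2% and enclosed the other at 69.2%. Wnt9b had the highest ratio among members, 2.22, with a Jarid2 peak of 5501 bp and a Jarid2-K116me2 peak of 2478 bp. Sox9 had 1.52 (9346 and 6168 bp) and Slc9a2, a sodium-proton exchanger, 1.68 (6924 and 4129 bp). The widest homeobox peaks had ratios near 1, with 1.12 at the wider Lhx2 member, 1.05 at Barx1 and 1.09 at En1. The midpoints of both peaks lay a median of 123.5 bp apart. With 1 sample for each antibody, there is no replicate against which these width differences could be read.

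**Figure D2:**
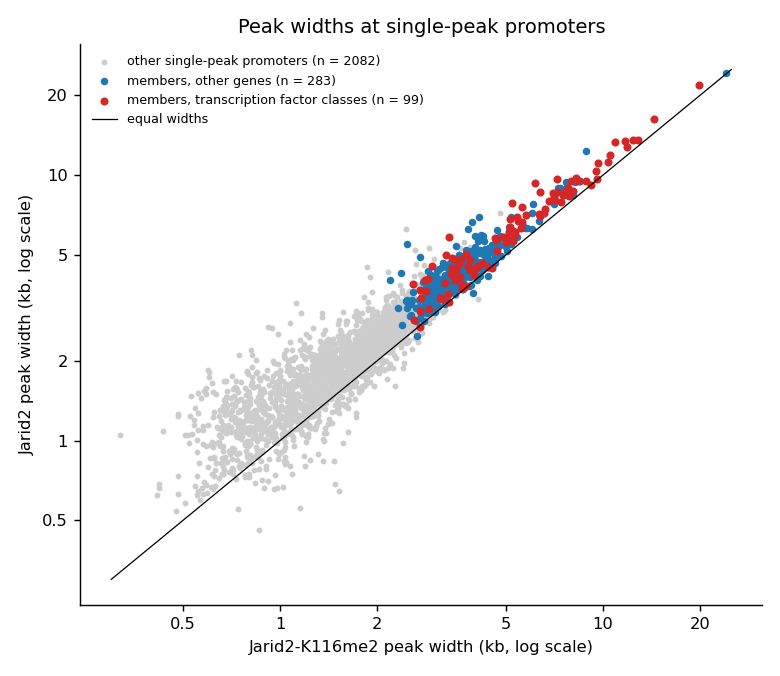
Width of the Jarid2 peak against the Jarid2-K116me2 peak (kb, both axes on a log scale), for members of the transcription factor classes (red), other members (blue) and other single-peak promoters (grey), with the line of equal widths. Most members lie above the line, and the widest are mostly in the transcription factor classes.

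All 382 member regions covered the nearest transcript start, against 94.1% of the other single-peak promoters. The midpoint lay a median of 340 bp from the start (quartiles 135.5 and 597.25 bp), with 255 midpoints downstream and 127 upstream of it. The median signed offset was 160 bp downstream, against 221.5 bp for the others, of which 76.1% lay downstream compared with 66.8% of the members. The midpoint fell in an exon at 194 members (50.8%), in an intron at 132 (34.6%) and between genes at 56 (14.7%). Nkx6-2 had its midpoint 1 bp and Sfmbt2, a Polycomb-related protein with malignant brain tumour repeats, 2 bp from the start. Nrg3 (4 bp), Wnt9b (6 bp) and the ephrin receptor Epha5 (7 bp) followed. The farthest were Gas1 (999 bp downstream), Foxp2 (992 bp upstream), En1 (988 bp upstream), Tbx1 (978 bp downstream) and F930015N05Rik (977 bp upstream). The wide peaks of En1 and Tbx1 covered the start in spite of this distance. Starts on both strands lay within 1 kb at 12.8% of members and 10.3% of the others.

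**Figure D3:**
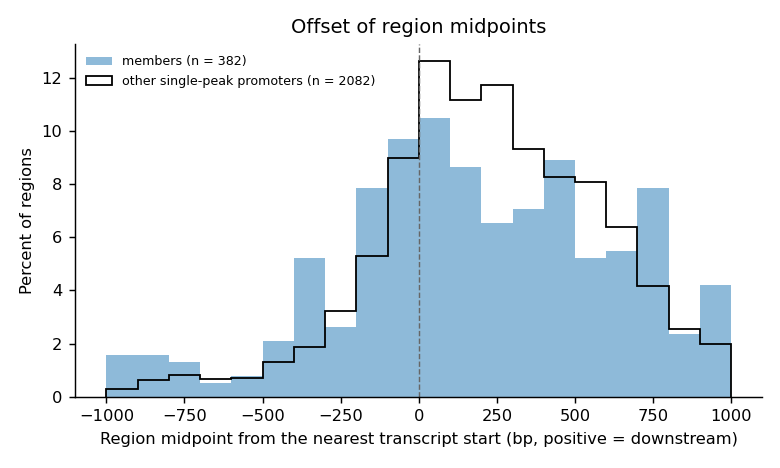
Distance of the region midpoint from the nearest transcript start (bp, positive values downstream along the gene), in percent of regions per bin, for members (filled) and other single-peak promoters (line). Members peak less sharply just downstream of the start, with 66.8% of midpoints downstream of the start against 76.1%.

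H3K27me3 was measured in libraries that the selection did not use, so its presence over the members could be tested. In undifferentiated cells, an H3K27me3 peak overlapped 89.3% and 99.5% of the members in Jarid2-/- replicates 1 and 2, 41.6% and 97.9% in the Jarid2 rescue, and 93.2% and 99.2% in the K116A rescue. In EB the shares were 88.5% and 88.5% in Jarid2-/-, 92.4% and 93.5% in the Jarid2 rescue, and 94.0% and 94.5% in the K116A rescue. Replicate 1 of the Jarid2 rescue ESC stood apart from the other ESC libraries, and it had the fewest peaks of all (1478, against 3554 to 14125 in the other 11). The members were covered more often than the 2082 other single-peak promoters in all 12 libraries, with a mean of 89.3% against 58.6% and a difference of 30.7 percentage points (two-sided exact permutation test over libraries, p = 0.000488, the smallest the design allows). The difference in single libraries ran from 14.5 points in the second Jarid2-/- ESC library to 47.6 points in the first. The 12 libraries are replicates of 3 related lines over the same regions, so they are not fully independent. With the mean of the 2 replicates of each group, the exact permutation p was 0.0312. Both p-values measure agreement between libraries and not the spread among promoters. A peak counted with any overlap, and a wider region is easier to overlap. Member regions had a median width of 4468 bp, against 1968 bp for the others. When peaks had to cover 50% of the region, the mean difference was 32.2 points. The part of width in these differences was not tested. The score of the H3K27me3 peaks, as the peak caller gave it, also had a higher median over called members than over called other promoters in 12 of 12 libraries (two-sided exact permutation test of the log2 ratio, p = 0.000488, mean 0.39). The score was the highest over the region, so width enters here too, and its part was not tested. For this score the test was not repeated with replicates averaged. Peak numbers differed severalfold between libraries of one group, and read numbers per library, which the study gives, were not analysed here. By those numbers the first Jarid2 rescue ESC library had the most reads of the ESC libraries. The part of depth in its peak number was not tested.

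Between ESC and EB, the mean share of members with a peak was 86.8% ± 22.5 (SD, n = 6 libraries) in ESC and 91.9% ± 2.73 (SD, n = 6) in EB, a difference of 5.10 points that did not pass the two-sided exact permutation test (p = 0.955). Without the first Jarid2 rescue ESC library the direction turned, to 3.93 points fewer in EB (95.8% in ESC, exact permutation p = 0.113), and with the replicate 2 libraries alone it was 6.72 points lower in EB (-6.72, exact permutation p = 0.1, the smallest 3 against 3 allow). Replicate 1 had fewer peaks than replicate 2 in both ESC and EB of all 3 lines. The study took its peak set for comparing ESC with EB from replicate 2, which it rated as of higher quality. The Jarid2-/- line had the lowest share in EB in both replicates, although its EB libraries had the most peaks over the genome of all EB libraries (10164 and 14125). In EB the mean share was 4.45 points lower in Jarid2-/- and 1.31 points higher in the K116A rescue than in the Jarid2 rescue (two-sided exact permutation test, p = 0.333 for both, the smallest that 2 against 2 libraries allow). In every library most called members had the region midpoint inside an H3K27me3 peak, apart from the first Jarid2 rescue ESC library (28.3%); the others ran from 61.6% to 93.4%.

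**Figure D4:**
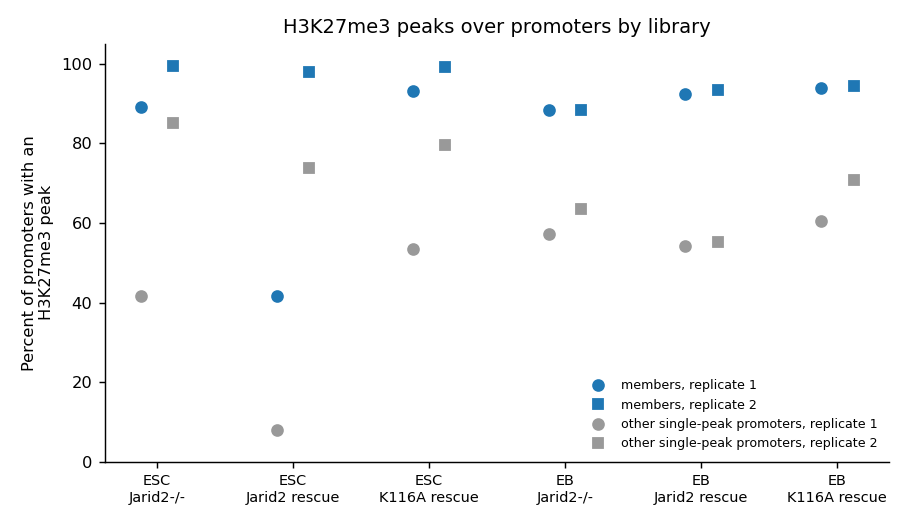
Percent of members (blue) and of other single-peak promoters (grey) overlapped by an H3K27me3 peak in each of the 12 libraries, with replicate 1 as circles and replicate 2 as squares. Members lie above the other promoters in every library, and replicate 1 of the Jarid2 rescue ESC lies at 41.6%. Member regions are wider at the median, and the part of width was not tested.

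All 382 members had an H3K27me3 peak in 2 or more of the 12 libraries, 148 had one in all 12 (38.7%, against 6.96% of the other single-peak promoters), and 159 had one in 11. The share with a peak in all 12 was 30.2% among the 96 members with the narrowest Jarid2 peaks and 58.3% among the 96 with the widest. It was 47.5% in the transcription factor classes and 35.7% in all other members. The median Jarid2 width was 5892 bp in these classes and 4200 bp in all other members. Wider regions are easier to overlap, and the part of width in these shares was not tested. Only 18 members had a peak in fewer than 6 libraries. At each number of libraries from 0 to 5, the share was lower at members than at the other single-peak promoters. With a peak in 4 libraries, for example, it was 2.36% against 6.58%.

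A member was counted as without H3K27me3 in EB when a peak overlapped it in at least 1 ESC replicate of a line and in neither EB replicate. In Jarid2-/- cells this held for 39 of 380 members with an ESC peak (10.3%), against 24.7% of all single-peak promoters with one. In the Jarid2 rescue it held for 16 of 374 (4.28%, against 20.6%), and in the K116A rescue for 18 of 379 (4.75%, against 15.5%). The members' share was below this background in each line, a difference given without a test. In the Jarid2 rescue the count rests on the second ESC library: when both ESC replicates were required to have a peak, the counts were 26, 0 and 12. Across the 3 lines 44 members (11.5%) met this definition at least once, against 32.3% of the other single-peak promoters. Of the 44, 4 were in the transcription factor classes (Evx1, Foxp2, Irf2 and Pgr, 4.04% of 99) and 40 were other genes (14.1% of 283). The part of region width in these shares was not tested.

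The definition was met in all 3 lines at 9 members (2.36%, against 6.87% of the other single-peak promoters): 9930014A18Rik, Aff3, Fgf5, Frem2, Gas1, Itpripl2, Maml3, Spats2l and Zmiz1. With Cables1 and L3mbtl3, which had no ESC peak in the Jarid2 rescue, 11 members had no peak in any EB library. The share of the other single-peak promoters without any EB peak was not computed. Fgf5, a growth factor known as a marker of the epiblast that follows the naive ESC state, had H3K27me3 scores of 0 (no peak) and 56.5 in the Jarid2-/- ESC replicates, 0 and 46.4 in the Jarid2 rescue ESC, and 49.3 and 47.6 in the K116A rescue ESC. It had no peak in any of the 6 EB libraries, where the nearest peak lay 61903 bp or more away. Gas1, a membrane co-receptor for hedgehog ligands, had 50.1 and 59.8, then 0 and 43.9, then 53.7 and 65.3 in the same ESC libraries, and none in EB, although a peak lay 4653 bp away in the second K116A rescue EB library. Maml3, a co-activator of Notch signalling, had 50.4 and 77.9, 0 and 70.5, and 53.2 and 70.0 in ESC. All 3 genes lacked the peak in the first Jarid2 rescue ESC library, the one that stood apart.

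In 19 members (4.97%) the definition was met in Jarid2-/- cells and in neither rescue, a pattern found at 8.02% of the other single-peak promoters. They included Cyp26a1, an enzyme that degrades retinoic acid, Evx1, a homeobox factor of the primitive streak and spinal cord, Cdh2, the chromatin protein Hmga2, and the Wnt antagonist Frzb. Cyp26a1 had scores of 53.0 and 98.9 in Jarid2-/- ESC and no peak in both EB replicates, while EB of the Jarid2 rescue had 42.4 and 48.8 and EB of the K116A rescue 84.7 and 141.2. Evx1 had 49.0 and 82.6 in Jarid2-/- ESC, none in EB, 44.5 and 43.1 in EB of the Jarid2 rescue and 84.8 and 99.0 in EB of the K116A rescue. Cdh2 had 68.8 and 91.9, none, 41.7 and 43.9, and 83.8 and 95.6 in the same order. The EB scores of Cyp26a1, Evx1 and Cdh2 in the Jarid2 rescue thus lay between 41.7 and 48.8, where the lowest scores listed in those libraries were 33.7 and 33.4. Foxp2, Cables1, L3mbtl3, Podxl, Sema6a and Trio met the definition in Jarid2-/- and the K116A rescue (1.57% of members, against 3.36% of the other single-peak promoters). Kif1a and Oxtr were among the 3 that met it in the K116A rescue alone (0.785% against 2.79%). Whether these patterns differ between the lines was not tested for single members.

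The opposite order, a peak in EB of a line and in neither of its ESC replicates, was seen in all 3 lines at 2 members. Olig1 and Ntn1, the axon guidance cue netrin, had no H3K27me3 peak in any of the 6 ESC libraries, in spite of scores of 3100 for Jarid2 and Jarid2-K116me2. Counted by line, the order held for 2 members in Jarid2-/-, 3 in the Jarid2 rescue and 3 in the K116A rescue, there including Cdk6. Of the 2082 other single-peak promoters it held for 57 in Jarid2-/-, 68 in the Jarid2 rescue and more in the K116A rescue. The share of the others with this order in all 3 lines is not given here. Ntn1 had EB scores of 124.9 and 174.8 in Jarid2-/-, 62.3 and 42.9 in the Jarid2 rescue, and 77.6 and 101.8 in the K116A rescue, and its nearest ESC peak lay between 31384 and 725778 bp away. Olig1 had 61.3 and 98.3 in EB of Jarid2-/-, 53.1 and none in the Jarid2 rescue, and 40 and none in the K116A rescue, where the nearest peak of the second replicate lay 1351 bp away. Cdk6 had a peak in 1 of 6 ESC libraries (52.0, second Jarid2-/- replicate), 53.9 and 69.1 in EB of Jarid2-/-, none in EB of the Jarid2 rescue, where peaks lay 1736 and 2143 bp away, and 64.9 and 87.6 in EB of the K116A rescue.

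The H3K27me3 score was compared by limma on the log2 of the highest score over each region, in the 645 merged regions that had a peak in all 12 libraries, with each library centred on its median. With the centring, a change is relative to the median region of the same library. The set held 148 of the 382 members, since a member that lacked a peak in even 1 library was left out. Without the first Jarid2 rescue ESC library, 1613 regions and 302 members had a peak in all remaining libraries. The lowest score listed in that library was 43.9, against 28.7 to 37.9 in the others. Changes in the Jarid2 rescue, and differences from it, thus rest on regions called there. What the caller's score measures for these peaks is not given in the sources used here, so a change in score is not a fold change of the mark. Without this centring the median region was itself higher in EB than in ESC, by 0.45 in Jarid2-/-, 0.24 in the Jarid2 rescue and 0.96 in the K116A rescue on the log2 scale.

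In Jarid2-/- cells, 25 members had a lower and 19 a higher score in EB than in ESC (limma, Benjamini-Hochberg adjusted p of 0.05 over all 645 regions). These were 16.9% and 12.8% of the 148 members, against 17.5% and 13.2% of all regions tested, shares near those of the background. Kcng3, a modifier subunit of potassium channels, had scores of 96.6 and 209.5 in ESC and 40.2 and 55.3 in EB. This was the lowest change among members, -1.98 (SE 0.20, limma adjusted p = 1.38e-05). Osbpl6, an oxysterol-binding protein, had 110.5 and 145.0 in ESC and 38.1 and 61.5 in EB (-1.78, SE 0.18, limma adjusted p = 1.38e-05). Eomes had 61.2 and 135.7 in ESC and 40.8 and 47.8 in EB (-1.43, SE 0.15, limma adjusted p = 1.83e-05). For Kcng3, Osbpl6 and Eomes, both EB values were below both ESC values. Sntb1, a syntrophin of the cytoskeleton, fell by 1.29 and Bmper by 1.28, and Sox9, a factor of cartilage, gonad and neural crest, by 1.38. The 25 also held Sp5, a zinc finger factor induced by Wnt, which fell by 1.25, Lef1, a nuclear effector of Wnt signalling, which fell by 1.01, and the Wnt ligands Wnt5b, Wnt5a and Wnt2b, which fell by 0.69, 0.65 and 0.55; these 5 and Sox9 were picked after their values were seen. The other Wnt ligands tested, Wnt10b and Wnt1, had 0.19 and 0.16 and did not pass (limma adjusted p = 0.399 and 0.440). Of the 19 that rose, the smallest adjusted p belonged to AB041806 (55.7 and 85.3 in ESC, 122.3 and 190.1 in EB; 0.76, SE 0.16, limma adjusted p = 0.00349). The others included Sall3 (0.70), Gsx1 (0.62), Tbx1 (0.68), Insm1 (0.45) and Nkx3-2 (0.46), factors of the transcription factor lists. Of the 47 members of the transcription factor classes that were tested, 9 were higher and 6 lower, and of the other 101 members 10 were higher and 19 lower. Without centring none of the 44 passed, although all 44 had the same sign. Leaving out single libraries gave between 23 calls (without the first Jarid2-/- ESC library) and 95 (without the first Jarid2 rescue ESC library, which brings more regions into the test), and 18 of the 44 passed in all 12 such fits.

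In the Jarid2 rescue a single member passed, Grin2a, a glutamate receptor subunit, with 50 and 84.4 in ESC and 50.7 and 47.1 in EB, ranges that overlap before centring (-0.63, SE 0.14, limma adjusted p = 0.0409). That is 0.676% of members, against 2.17% of all regions lower. No member passed when any one of the 4 libraries of this line was left out.

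In the K116A rescue, 19 members were lower and 21 higher in EB (12.8% and 14.2%, against 16.4% and 17.2% of all regions). Kcng3 was again first, with 79.8 and 151.0 in ESC and 46.8 and 53.0 in EB (-2.08, SE 0.20, limma adjusted p = 1.21e-05). Pcdh8, a protocadherin of the paraxial mesoderm and brain, had 66.3 and 112.7 in ESC and 64.4 and 80.3 in EB, which also overlap before centring (-1.21, SE 0.14, limma adjusted p = 3.87e-05). Samd4 (-1.36), the potassium channel Kcnk12 (-1.05) and Speg (-0.96) followed. The members that rose were led by Barx1, a homeobox factor of stomach and jaw, with 71.6 and 121.9 in ESC and 250.1 and 322.7 in EB (0.66, SE 0.14, limma adjusted p = 0.00316). The others included Tbx1 (0.76), Cdkn2c (0.72) and AB041806 (0.63). The transcription factor classes held 14 of the 21 higher and 4 of the 19 lower members, that is 29.8% and 8.51% of 47, against 6.93% and 14.9% of the other 101. This split between classes is a description, computed on the centred scale. The scaling decides the split in this line: without centring 38 members passed, all of them higher, and of the 40 called with centring 27 had the same sign. Left-out libraries gave between 13 calls (without the first K116A rescue ESC library) and 88 (without the first Jarid2 rescue ESC library), and 8 of the 40 passed in all 12 fits. The members called in both Jarid2-/- and K116A cells were 12 in the lower direction (48.0% and 63.2% of the 2 lists) and 7 in the higher (36.8% and 33.3%). Over all 645 regions the shared calls were 49.6% and 52.8% of the lower lists and 55.3% and 42.3% of the higher. Both neighbouring members at Lhx2 had the same H3K27me3 score in each library and are not independent. Wnt10b and Wnt1 had the same score in the second Jarid2-/- EB library and in both K116A rescue EB libraries. AW047730 and its neighbouring member AC044864.1 had the same score in both K116A rescue EB libraries. In those libraries these pairs are not independent either.

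**Figure D5:**
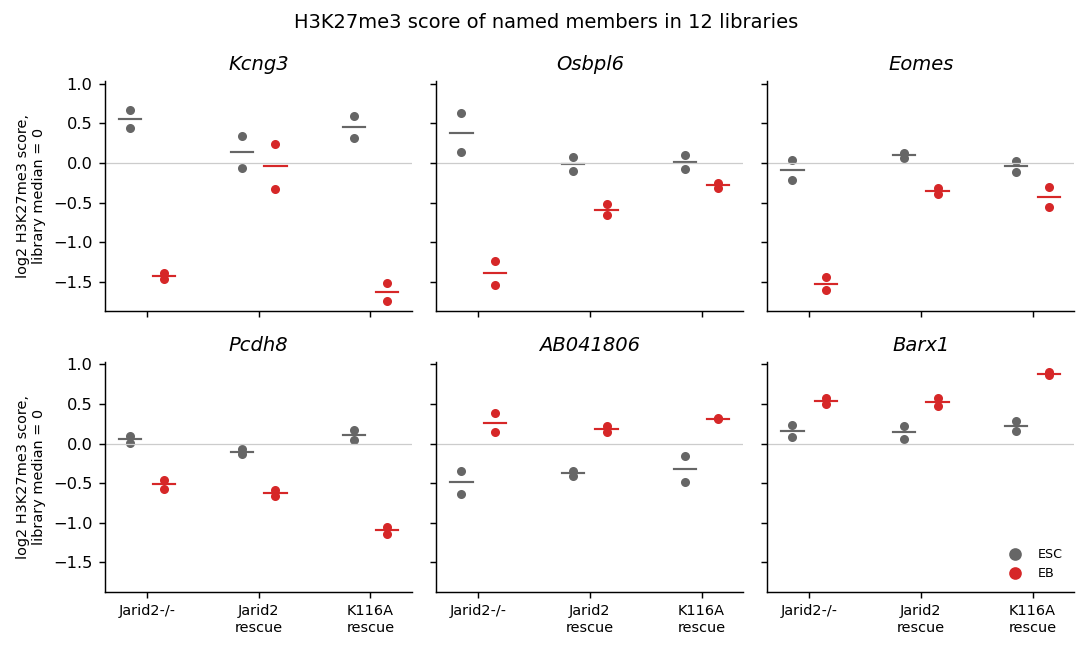
Log2 H3K27me3 score of 6 members in ESC (grey) and EB (red) of each line, relative to the library median over the regions tested; points are replicates and lines their mean. Kcng3 is lower in EB of Jarid2-/- and K116A rescue cells, Osbpl6 and Eomes are lowest in EB of Jarid2-/- cells, and AB041806 and Barx1 are higher in EB.

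The difference between lines was tested as an interaction. The change from ESC to EB was lower in Jarid2-/- than in the Jarid2 rescue at 7 members (4.73%, against 3.1% of all regions tested) and higher at 1 (0.676%, against 0.465%). The 7 were Kcng3 (-1.81, SE 0.29, limma adjusted p = 0.00877), Osbpl6 (-1.20), Eomes (-0.99), Sp5 (-0.99), Sntb1 (-0.89), Lef1 (-0.89) and Bmper (-0.88), and the 1 was Vwc2 (0.81), a secreted modulator of bone morphogenetic proteins. In EB of the Jarid2 rescue, Kcng3 had scores of 75.7 and 102.5, Eomes 72.5 and 69.7, Sp5 77.9 and 77.9, and Lef1 92.5 and 75.6. The values of Sp5 and Lef1 in EB of Jarid2-/- were 53.1 and 62.5, and 58.4 and 69.8. The change was lower in the K116A rescue than in the Jarid2 rescue at 3 members (2.03%, against 2.17% of all regions): Kcng3 (-1.90, SE 0.29, limma adjusted p = 0.00764), Kcnk12 (-1.02) and Speg (-0.79). Both comparisons share the Jarid2 rescue libraries. These calls were sensitive to single libraries. In the Jarid2-/- difference, 0 to 6 members passed when 1 library was left out, with 0 both without the first Jarid2 rescue ESC library and without the second Jarid2-/- EB library. In the K116A difference, 0 to 5 passed, with 0 without the second K116A rescue EB library. None of the 8 or the 3 passed in all 12 such fits, while the sign of each was the same in all. Kcng3 had an adjusted p under 0.05 in 10 of 12 such fits in both comparisons. Without centring none of the 8 or the 3 passed, although all kept their sign. The K116A differences at Kcnk12 and Speg were then -0.31 and -0.07. With regions called in at least 10 of 12 libraries, 3 of the 8 and 2 of the 3 passed.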

How the data were processed

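The authors aligned single-end reads to mm9 with Bowtie2 2.1.0, kept 1 location for reads that fit several, and removed PCR duplicates. They called Jarid2 and Jarid2-K116me2 peaks with MACS 1.4.2 and broad H3K27me3 peaks with MACS2 2.0.10. The versions are from the submitters' processing notes. The deposited values are the peaks with their score, as the callers wrote it, without read counts, fold enrichment or q-value. The study gives read numbers per library, which were not analysed here.

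Peaks were merged at an overlap of 1 bp. Starts came from all transcripts of GENCODE for NCBIM37, the mm9 assembly, and sequence from the same assembly. The H3K27me3 comparison had been planned on fold enrichment and was run on log2 scores with limma 3.58.1 (R 4.3.3), 6 groups in one fit, Benjamini-Hochberg adjustment at 0.05. Shares of promoters were compared by exact permutation over libraries. The functions were tested on simulated data. Replicates were separate biological samples.

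The members and the gene lists were chosen with earlier results of these data known. Genes were named by a rule: per class the 3 widest and the narrowest Jarid2 peaks, and the extremes of width, distance, CpG ratio, score, H3K27me3 calls and adjusted p. Other genes were named as examples of their class or for a pattern after their values were seen. Alternatives covered distance, overlap, annotation, score, centring, the regions tested, the replicate block and left-out libraries. Some members that the rule would name are not reported here.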

Additional observations from a re-analysis of the deposited data

Results flagged for a closer look

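The share of members with an H3K27me3 peak in replicate 1 of the Jarid2 rescue ESC (41.6%) lay far below the other 5 ESC libraries: its gap to the next library made up 0.824 of the range of the 6, above Dixon's critical value of 0.625, which chance exceeds in about 1 of 20 groups. The same library had 1478 peaks, and the part of peak number in this value was not tested. 

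The change in H3K27me3 score from ESC to EB differed between Jarid2-/- and the Jarid2 rescue by limma's interaction test at 8 members. The differences on the log2 scale were -1.81 at Kcng3, -1.20 at Osbpl6, -0.99 at Eomes, -0.89 at Sntb1, -0.88 at Bmper, -0.99 at Sp5, -0.89 at Lef1 and 0.81 at Vwc2 (Jarid2-/- minus Jarid2 rescue). Between the K116A rescue and the Jarid2 rescue it differed at Kcng3 by -1.90, at Kcnk12 by -1.02 and at Speg by -0.79.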

How the results depend on the processing

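Of the settings other than left-out libraries, 31 of 44 gave a test on the same side of its threshold or a count close to that reported. One of these, the K116A rescue without centring, turned from 21 higher and 19 lower members to 38 higher. The number of members was 264 to 489 with other distances, overlaps or annotation and 1017 with a score of 1000 or more in both lists. The share of members with a peak was 6.72 points lower in EB (-6.72, exact permutation p = 0.1, the smallest it allows) with replicate 2 libraries alone. Leaving out each library gave -3.93 to 7.64 points for EB minus ESC and 29.2 to 32.2 points for members minus other promoters. Requiring both ESC replicates, 0 members were without H3K27me3 in EB of the Jarid2 rescue.

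For limma, counts of members called are given in the order Jarid2-/-, Jarid2 rescue, K116A rescue, then the differences of Jarid2-/- and of K116A from the Jarid2 rescue. Without centring they were 0, 0, 38, 0 and 0. With regions called in at least 10 of 12 libraries they were 87, 0, 81, 3 and 3, and with the overlap-weighted mean score 46, 5, 43, 6 and 3. In the K116A difference with at least 10 of 12 libraries, 2 of the 3 were among those reported. Left-out libraries gave 23 to 95, 0 to 2, 13 to 88, 0 to 6 and 0 to 5. The 95 and the 88 came without the first Jarid2 rescue ESC library, where more regions had a peak in all remaining libraries. With the replicate block they were 49, 2, 43, 8 and 3. Same-numbered replicates deviated together (correlation over 0.1) in 4 of 15 pairs of groups: all 3 pairs among the ESC groups (0.453 to 0.536), 1 among the EB groups and none between ESC and EB. The numbers were therefore not taken to pair ESC with EB samples. The replicate block gave an exact permutation p of 0.969 for EB against ESC and 0.0312 for members against other promoters. The stricter q-value planned for H3K27me3 peaks was not run, since the files hold none; peaks with a score of 50 or more, chosen after seeing the data, gave 5.50 and 37.2 points. Read depth per library was not analysed here.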
